A study of Mus musculus with 24 samples.

Results

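The genes described here are the nuclear-encoded subunits of the mitochondrial respiratory chain and of ATP synthase, measured as messenger RNA in mouse liver. They were chosen by name and annotation: protein-coding genes outside the mitochondrial chromosome named Nduf followed by a, b, c, s or v and a number, Sdha to Sdhd, Uqcr, Cox4 to Cox8 or Atp5, with at least 10 reads over the 24 libraries. This gave 84 of 27802 genes: 38 of complex I, 4 of complex II, 8 of complex III, 17 of complex IV and 17 of complex V. Expression values played no part in the choice beyond the read minimum. Of the 84, 37 overlap another annotated gene, and no source used here says whether reads were counted by strand. A further 11 genes typed as pseudogenes share these name patterns and were not included. Cox5b-ps was kept because the deposited tables type it as protein-coding, although their gene description calls it a pseudogene.

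The 24 libraries came from 1 liver each and crossed neuron ablation, housing temperature and sex. In ablated mice, an adeno-associated virus with a Cre-activatable Caspase3 had been injected into the arcuate nucleus (ARC) of adults expressing Cre through the angiotensin receptor AT1R gene, to kill the AgRP neurons that bear this receptor. The comparison asked what the liver does after that loss, 2 weeks after surgery, at 22 °C and at 30 °C. Both the ablated and the control mice had free access to 2029x Teklad diet and water, and no source used here says what was injected into the controls. Each combination of ablation, sex and temperature held 3 mice, except that the controls at 30 °C were 4 females and 2 males. The 12 ablated mice were Cre+, and among the 12 controls 4 were Cre+ and 8 were Cre-. At 22 °C all 12 mice were Ai39 x BAC-AT1A-Cre with genotype Halo+/-. At 30 °C 7 mice were of that line, 2 ablated mice were Ai9 x BAC-AT1A-Cre, and 3 mice were BAC-AT1A-Cre. Each library is a separate mouse, so the p-values below measure the spread between mice.

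The respiratory chain passes electrons from NADH (complex I) and succinate (complex II) through complex III and cytochrome c to oxygen at complex IV, and the proton gradient built on the way drives ATP synthase, called complex V. Complexes I, III, IV and V combine a few subunits made from mitochondrial DNA with many made from nuclear genes, while complex II is nuclear throughout. The liver uses this machinery for fatty acid oxidation, gluconeogenesis and urea synthesis. In mice the choice between paralogous subunits of complex IV differs between tissues, with heart and muscle forms such as Cox6a2, Cox7a1 and Cox8b and liver forms such as Cox6a1, Cox7a2 and Cox8a.

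The libraries held 21691653 to 34851108 reads in genes. Mitochondrially encoded genes took 7.53% of them in 30 °C ablated female 3 and 37.3% in 22 °C control female 3, the 2 extremes. The library of 30 °C control male 1 had the fewest genes with at least 10 reads, 13601. The hepatocyte list of 6 markers was abundant in all 24 libraries, with 63425 to 103146 CPM in sum (CPM are reads scaled to a common library size, with library sizes corrected by TMM). In these bulk samples fewer cells of a type and less RNA per cell cannot be told apart.

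Nearly the whole chain was abundant in liver. The nuclear subunit genes together took 0.597% to 1.46% of the reads in genes of a library. With the mitochondrially encoded reads left out, they took 0.952% to 1.62%. On the FPKM scale, which divides by gene length, the median of the genes' mean levels was 59.3 FPKM in complex I, 43.8 FPKM in complex II, 140 FPKM in complex III, 78.5 FPKM in complex IV and 62.7 FPKM in complex V, against 1.75 FPKM over all 16136 protein-coding genes with at least 10 reads. Cox6a1, the liver form of subunit VIa of cytochrome c oxidase, had the highest mean level, 487 ± 90.9 FPKM (SD over 24 libraries). Cox6b1, another small subunit of the same enzyme, followed with 416 ± 41.6 FPKM and Uqcrq, a small subunit of complex III, with 314 ± 34.6 FPKM. The levels of Cox6a1 and Cox6b1 overlap within 1 SD, and those of Cox6b1 and Uqcrq do not. Cox8a at 306 ± 66.2 FPKM, Cox4i1 at 289 ± 47.4 FPKM, Uqcr11 at 283 ± 44.1 FPKM and Cox7c at 245 ± 35.3 FPKM came next, so that the 7 highest genes all belonged to complexes III and IV. In complex I the highest level was that of the accessory subunit Ndufa1 (210 ± 30.9 FPKM), whereas the catalytic subunit Ndufs1, which carries iron-sulfur clusters, had 7.61 ± 0.788 FPKM. In complex II the level of the iron-sulfur subunit Sdhb was 109 FPKM and that of the flavoprotein Sdha 29.3 FPKM. Among ATP synthase genes the mean level lay between 10.8 FPKM for Atp5l and 149 FPKM for Atp5h. Levels per length depend on the gene length in the deposited tables and do not give subunit ratios.

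**Figure D1:**
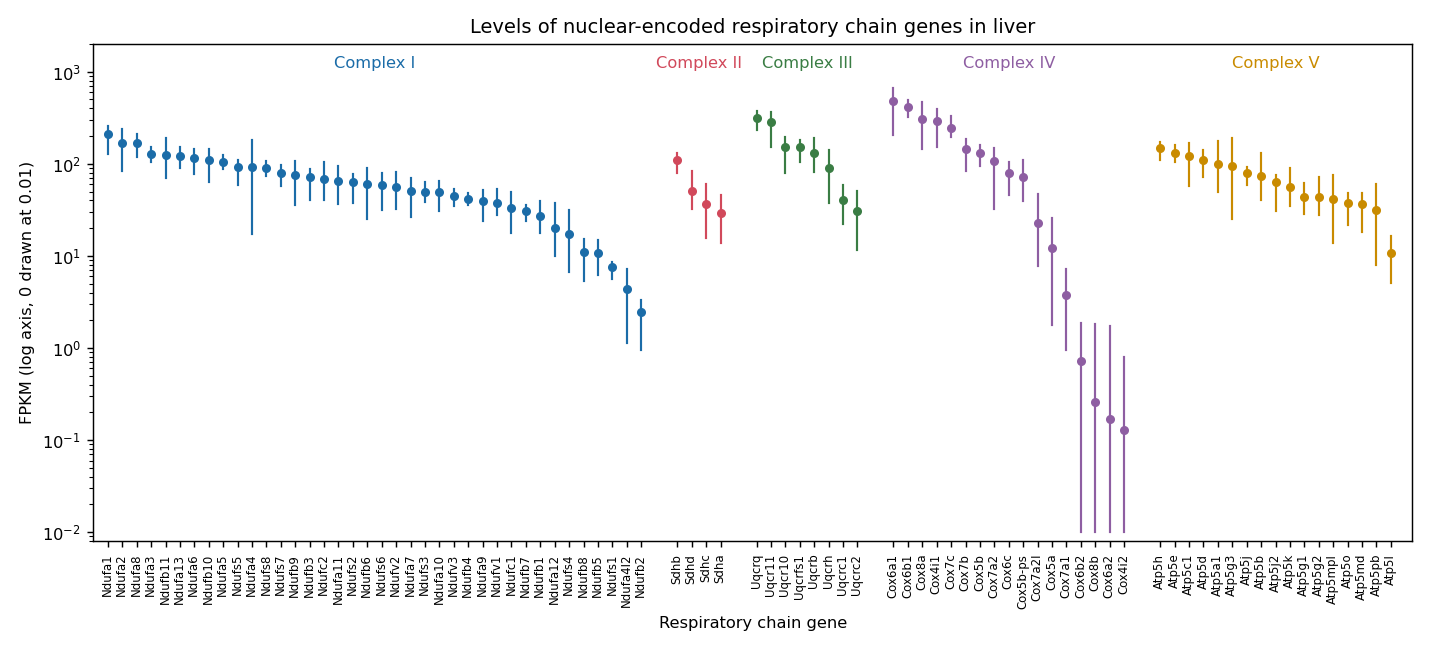
Mean FPKM of the 84 genes by complex on a log axis, each point the mean of 24 libraries and each line the range over them. Most genes of every complex lie between 10 FPKM and the 487 FPKM of Cox6a1, and the 4 genes whose mean is under 1 FPKM are all complex IV paralogs.

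The heart and muscle forms Cox6a2 and Cox8b of complex IV were at or near the limit of detection, whereas Cox7a1 had 13 to 111 reads per library. Cox6a2 had no reads in 16 of 24 libraries and at most 31 reads in the others, and Cox8b had none in 15 and at most 20. Cox4i2, the lung form of subunit IV, had none in 15 libraries and at most 15 reads. Their liver partners Cox6a1, Cox8a and Cox4i1 were among the 5 highest genes. Cox6b2, the testis form, had a mean of 0.715 ± 0.419 FPKM, against 416 FPKM for Cox6b1. Cox7a1 was the muscle form with the highest level, at 3.74 ± 1.82 FPKM, a median of 3.47% of the sum of Cox7a1 and Cox7a2. The muscle markers Acta1, Ckm and Tnnt3 and the brown adipocyte markers Ucp1 and Cidea had a median of 0 CPM over the libraries. The muscle marker Mylpf did not, with 4.46 CPM in 22 °C control male 1 and 4.37 CPM in 30 °C control male 2. The muscle list of 4 genes summed to 23.8 CPM in 22 °C control male 1 and to at most 4.37 CPM in the other libraries. That same library had the highest Cox6a2 level among the 22 °C controls, 1.18 CPM against at most 0.345 CPM in the other 5. The part of muscle RNA in it was not tested.

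Ablation at 22 °C changed no nuclear respiratory chain gene beyond the spread between mice. Of the 83 genes that passed the filter on low counts, 0 were called by edgeR's quasi-likelihood test at an adjusted p under 0.05, where 0.094% of all 20213 genes were called. At an unadjusted p under 0.05 there were 0 of the 83, against 8.34% of all genes, and DESeq2 and limma voom called 0 as well. The median log2 fold change was 0.11 over the 83 genes and 0.02 over all genes. Of the 83, 64 were positive, where 52.8% of all genes were. The 95% confidence interval of the fold change lay within 1.5-fold in either direction for 63 of the 83 and within 2-fold for 76.

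The lowest p-values at 22 °C belonged to Ndufc2 and Ndufc1, which lie in the membrane arm of complex I, and to Cox8a and Cox7a2. Ndufc2 had 42.4 to 63.5 CPM (median 51.9) in 6 ablated livers and 30.2 to 55.8 CPM (median 40.8) in 6 control livers, a log2 fold change of 0.29 ± 0.16 (SE, edgeR quasi-likelihood test, adjusted p = 0.654). Cox8a had 183 to 238 CPM (median 194) in ablated livers and 88.0 to 215 CPM (median 172) in control livers, a log2 fold change of 0.30 ± 0.17. Cox7a2 had 75.2 to 142 CPM (median 115) in ablated livers and 29.5 to 136 CPM (median 83.7) in control livers, a log2 fold change of 0.37 ± 0.21. For all 3 genes the 2 arms overlapped and the lowest library was a control. In complex II the log2 fold changes were 0.09 ± 0.21 for Sdha, 0.07 ± 0.13 for Sdhb, 0.13 ± 0.19 for Sdhc and 0.07 ± 0.19 for Sdhd, the last 2 being the membrane anchors. Among the catalytic subunits of complex I, Ndufv1, which binds NADH, had -0.09 ± 0.14 and Ndufs1 -0.11 ± 0.12. The core subunits of complex III had 0.05 ± 0.17 for Uqcrc1, 0.16 ± 0.25 for Uqcrc2 and 0.18 ± 0.12 for the Rieske protein gene Uqcrfs1. The catalytic ATP synthase subunits had 0.14 ± 0.20 for Atp5a1 and 0.08 ± 0.20 for Atp5b. None of these exceeded 2 SE. All ablated mice and 1 of the 6 controls at 22 °C carried Cre, and with Cre as a term the median over the genes was -0.02. Without 22 °C control female 3, whose levels were low in most of these genes, it was -0.01, so the positive median rested on that library.

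At 30 °C the picture was alike: 0 of 83 genes were called after ablation, as were 0.0% of all genes. At an unadjusted p under 0.05 only Uqcr11, a small subunit of complex III, was higher, where 6.96% of all genes passed in either direction. Uqcr11 had 168 to 220 CPM (median 193) in ablated livers and 97.6 to 191 CPM (median 177) in control livers, a log2 fold change of 0.32 ± 0.15 (edgeR adjusted p = 0.70). The 97.6 CPM was that of 30 °C control male 1, the library with the fewest genes with at least 10 reads. The arms overlapped. Ndufb6, an accessory subunit of complex I, had 42.0 to 53.0 CPM (median 48.1) in ablated livers and 28.2 to 51.0 CPM (median 36.6) in control livers, a log2 fold change of 0.38 ± 0.19. The median over the 83 genes was 0.13, with 71 positive, and 0.05 over all genes, of which 57.1% were positive. By complex the medians were 0.13 for complex I, 0.06 for complex II, 0.12 for complex III, 0.17 for complex IV and 0.16 for complex V. DESeq2 and limma voom called 0 of the members. Leaving out 30 °C control male 2 makes control male 1 the only control male, and the log2 fold changes were then 0.57 for Uqcr11 and 0.77 for Ndufb2. Both genes had their fewest reads of the 24 libraries in control male 1, 2296 for Uqcr11 and 124 for Ndufb2. These 2 values thus rest on that library. In that fit the median was 0.12 over the members and 0.17 over all genes.

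No difference of the ablation effect between the temperatures or between the sexes passed the test. For the effect at 22 °C minus that at 30 °C, 0 of 83 genes were called (0.0% of all genes) and 0 had an unadjusted p under 0.05 (7.0% of all genes). The lowest p was that of Ndufv1, with a log2 difference of -0.32 ± 0.19. For the effect in females minus that in males, 0 genes were called at 22 °C and 0 at 30 °C (0.0% of all genes in each), and 1 and 0 had an unadjusted p under 0.05, against 6.26% and 6.64% of all genes. The gene was Ndufb2, a small accessory subunit of complex I, with a log2 difference of 0.96 ± 0.42 at 22 °C (adjusted p = 0.774). These differences were estimated loosely: the confidence interval lay within 1.5-fold for 5 genes at 22 °C and for 11 at 30 °C. DESeq2 and limma voom called 0 of the members for each of these 3 differences.

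Most nuclear subunits had lower values at 22 °C than at 30 °C in ablated mice and in controls, with no gene past the adjusted threshold. In ablated mice 0 of 83 genes were called (0.0346% of all genes). The log2 fold change of 22 °C over 30 °C was negative in 76 of 83, where 50.2% of all genes were positive. Its median was -0.17 against 0.00 over all genes. With 1 library left out that median lay between -0.22 and -0.11. In controls 0 of 83 were called (0.0346% of all genes), and the median was -0.13 against 0.05 over all genes. There 61 of 83 were negative, where 54.4% of all genes were positive. Without 22 °C control female 3 the median in controls was -0.03. Of the controls, 1 of 6 at 22 °C and 3 of 6 at 30 °C carried Cre. With Cre as a term the median in controls was -0.04. All 12 mice at 22 °C but only 7 at 30 °C were Ai39 x BAC-AT1A-Cre, so line and temperature were partly aligned. Among mice of that line alone, with sex as an additive term, the medians were -0.12 in ablated mice and -0.13 in controls. The part of line in these medians was not tested. At an unadjusted p under 0.05 there were 4 genes in ablated mice and 6 in controls, each lower at 22 °C, where 9.78% and 12.6% of all genes passed in either direction. limma voom called 0 in both, and DESeq2 called 0 in ablated mice. In controls DESeq2 called 1 of 84 members, Uqcrfs1, which is 1.19% against 0.964% of all 27802 genes.

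Markers of liver cell types had values of their own in these comparisons, none of them called. For 22 °C over 30 °C in ablated mice, 0 of 6 hepatocyte markers were positive (median -0.23), against 6 of 6 endothelial (0.47), 6 of 6 stellate (0.63), 5 of 5 cholangiocyte (0.37), 4 of 5 lymphocyte (0.70), 3 of 6 macrophage (0.01) and 1 of 5 erythroid markers (-0.46). The stellate list summed to 133 to 192 CPM in ablated livers at 22 °C and to 33.3 to 131 CPM at 30 °C, which did not overlap. The endothelial list summed to 127 to 190 CPM at 22 °C and to 52.7 to 172 CPM at 30 °C, and the hepatocyte list to 73278 to 98651 CPM and to 71775 to 92810 CPM. In controls the medians were 0.03 for hepatocyte, 0.00 for endothelial, 0.03 for stellate, -0.27 for cholangiocyte, -0.30 for lymphocyte, 0.24 for macrophage and 0.27 for erythroid markers. The part of cell makeup in the values of the subunits was not tested.

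Ndufs3, a core subunit of complex I, had the lowest p in ablated mice. It had 87.9 to 118 CPM (median 97.3) in ablated livers at 22 °C and 110 to 140 CPM (median 119) at 30 °C, a log2 fold change of -0.33 ± 0.12 (adjusted p = 0.361). In controls Ndufs3 had 83.1 to 115 CPM (median 99.8) at 22 °C and 111 to 136 CPM (median 115) at 30 °C, a log2 fold change of -0.27 ± 0.12. In both cases the arms overlapped, between 110 and 118 CPM in ablated mice and between 111 and 115 CPM in controls. Uqcrfs1, the Rieske iron-sulfur protein of complex III, had 176 to 245 CPM (median 194) in ablated livers at 22 °C and 206 to 253 CPM (median 226) at 30 °C, a log2 fold change of -0.17 ± 0.12. It had the lowest p in controls, with 141 to 209 CPM (median 176) at 22 °C and 198 to 258 CPM (median 237) at 30 °C, a log2 fold change of -0.37 ± 0.13 (edgeR adjusted p = 0.25). The control arms overlapped between 198 and 209 CPM. Ndufs4, a further complex I subunit, had 17.8 to 56.0 CPM (median 38.4) in 22 °C controls and 36.7 to 84.7 CPM (median 53.1) in 30 °C controls, a log2 fold change of -0.57 ± 0.21. All 4 complex II genes were negative in both comparisons, with medians of -0.27 in ablated mice and -0.27 in controls, and the lowest value was that of the membrane anchor Sdhc, at -0.39 ± 0.19 in ablated mice and -0.44 ± 0.20 in controls. The catalytic ATP synthase genes had -0.29 ± 0.20 for Atp5a1 and -0.25 ± 0.20 for Atp5b in ablated mice, and -0.27 ± 0.20 and -0.06 ± 0.21 in controls. Of the complex IV genes in the panel, Cox4i1 had -0.17 ± 0.15 and Cox5a -0.19 ± 0.46 in ablated mice, and -0.15 ± 0.16 and -0.39 ± 0.48 in controls.

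The 13 mitochondrially encoded subunits had values of the opposite sign. All 13 were positive for 22 °C over 30 °C, with medians of 0.55 in ablated mice and 0.79 in controls, and all 13 were negative for ablation, with medians of -0.38 at 22 °C and -0.25 at 30 °C, none of them called. Ablation at 22 °C and temperature in controls share the 22 °C control livers, as ablation at 30 °C and temperature in controls share those at 30 °C. The share of mitochondrially encoded reads was 17.7% to 27.6% in 22 °C ablated livers, 13.8% to 37.3% in 22 °C control livers, 7.53% to 20.6% in 30 °C ablated livers and 12% to 23.8% in 30 °C control livers. With that share as a covariate and those genes left out, the median of the nuclear subunits was 0.01 for temperature in ablated mice, 0.09 for temperature in controls, 0.01 for ablation at 22 °C and 0.08 for ablation at 30 °C. The part of the share in the temperature medians was not tested. This covariate was added after the data were seen.

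**Figure D2:**
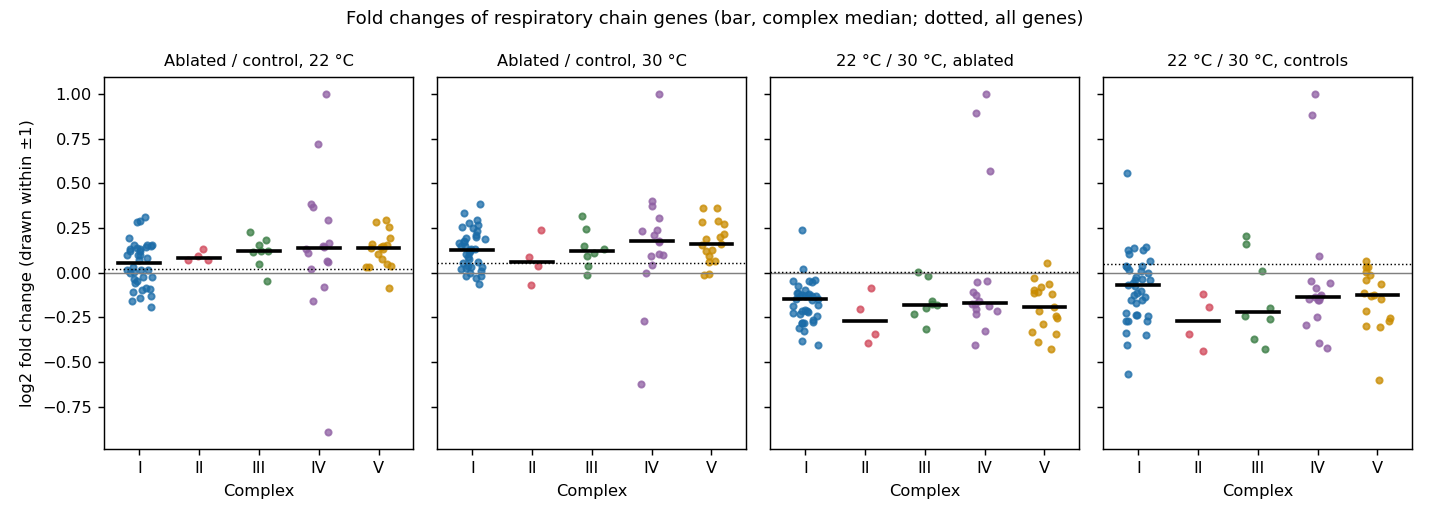
Log2 fold changes of the 83 tested genes by complex in the 4 main comparisons, with values beyond 1 drawn at the edge. Black bars are complex medians and the dotted line is the median of all genes; points lie mostly above 0 for ablation and mostly below 0 for 22 °C over 30 °C, and none passed the adjusted threshold.

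Control females differed from control males in 1 gene of the 83, Cox5b-ps. Of all genes 2.81% were called and 1.23% were called lower. The share of the members was below the former and about equal to the latter. Sex and Cre were partly aligned among these controls. At 22 °C 1 of 3 males carried Cre and all 3 females were Cre-. At 30 °C the 2 males and 1 of 4 females carried Cre. The sex comparison was not run with Cre as a term, so the part of Cre in the differences below was not tested. Cox5b-ps, typed as protein-coding but described as a pseudogene in the deposited tables, on chromosome 13 (GRCm39, 21685199 to 21685588, minus strand), is a copy of the complex IV gene Cox5b on chromosome 1. It had 15.3 to 26.9 CPM in 7 females and 28.4 to 42.9 CPM in 5 males, which did not overlap. Its log2 fold change was -0.58 ± 0.16 (edgeR adjusted p = 0.0331). Cox5b itself had 147 to 243 CPM in females and 174 to 247 CPM in males. No source used here says how reads that match both copies were divided, so the split between them is uncertain. The call was lost with limma voom and with 1 of 5 libraries left out (22 °C control males 1 and 3, 22 °C control female 3, 30 °C control male 1 and 30 °C control female 3). Among other listed genes of mitochondrial function, 1 of 14 tricarboxylic acid cycle enzymes, 1 of 16 regulators of mitochondrial biogenesis and 1 of 36 assembly factors of complexes II to V were called, against the 2.81% of all genes, and 0 of 15 complex I assembly factors, 0 of 77 mitochondrial ribosomal proteins, 0 of 8 uncoupling proteins and carriers and 0 of 7 subunits outside the name rule. Idh2, a mitochondrial isocitrate dehydrogenase, was higher in females, by 0.87 ± 0.17 on the log2 scale, the coactivator Ppargc1a was higher by 0.77 ± 0.19, and the copper-handling assembly factor Cox19 was lower, at -0.56 ± 0.13 (adjusted p = 0.00188, 0.0176 and 0.0135). With the share of mitochondrial reads as a covariate, 9 subunit genes were called lower in females, among them Cox7a2, Ndufs4, Ndufa4 and Cox5a. In that fit 929 of 20140 genes were called, 4.61% against 10.8% of the 83 members.

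The nuclear subunits varied between mice of the same group about as much as genes of all kinds with a mean of at least 20 CPM. Among the 77 subunit genes above that minimum, the median within-group SD was 0.27 on the log2 scale, against 0.25 over 5474 genes of all kinds. The 90th percentiles were 0.45 and 0.43. Levels above the minimum were not matched. The spread differed widely within the chain. Cox6b1 had a within-group SD of 0.11, at the 0.913th percentile of those genes, and Cox5a one of 0.84, at the 98.8th percentile. In 22 °C control female 3, 56 of the 77 genes lay more than 0.5 log2 units below their own median over the 24 libraries, and the median gene lay at -0.81. In 30 °C ablated female 3, 28 lay more than 0.5 above, and the median gene at 0.38. These were the libraries with the highest and the lowest share of mitochondrially encoded reads.

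A fit with that share beside the 8 group means, made after the data were seen and with the mitochondrially encoded genes left out of the library sizes, called 47 of 83 subunit genes lower and 0 higher as the share rose. Among all 20140 genes in that fit 12.2% were called, and 8.35% were called lower. The median change of the 83 genes was -0.29 log2 units per 10 percentage points of share, against -0.03 over all genes. Of the 83, 75 were negative, where 47.2% of all genes were positive. Called lower were 13 of 17 genes of complex V, 3 of 4 of complex II, 19 of 38 of complex I, 4 of 8 of complex III and 8 of 16 tested of complex IV. The relation was not limited to the 2 extreme libraries: without both, 20 genes were called lower and 0 higher (24.1% of the members, against 2.8% of all genes called), and without 22 °C control female 3 alone, 24 (28.9% against 4.51%). It was called in 39 genes among 22 °C libraries (48.1% of the members tested, against 9.63% of all genes) and in 16 among 30 °C libraries (19.5% against 2.77%). In females 48 genes were called (59.3% against 14.3%) and in males 0, where 0 of all 18319 genes were called either and 60 of 81 subunit genes were negative. Whether the slope differs between the sexes was not tested.

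Cox5a, a nuclear subunit of cytochrome c oxidase, had the steepest slope of the called genes. It had 14.5 to 32.4 CPM (median 29.1) in 22 °C ablated livers, 3.69 to 40.4 CPM (median 18.5) in 22 °C control livers, 17.6 to 55.9 CPM (median 27.6) in 30 °C ablated livers and 11.6 to 52.4 CPM (median 28.6) in 30 °C control livers. Its lowest value was in the library with the highest mitochondrial share and its highest value in the library with the lowest. Its slope was -1.42 ± 0.12 log2 units per 10 percentage points (edgeR quasi-likelihood test, adjusted p = 4.82e-09). Ndufa4, first assigned to complex I and later found in complex IV, had 23.4 CPM in 22 °C control female 3 and 260 CPM in 30 °C ablated female 3, and a slope of -1.13 ± 0.10 (adjusted p = 2.32e-08). Atp5g3, one of the genes for the c subunit of the ATP synthase rotor, had 53.8 CPM in 22 °C control female 3 and 434 CPM in 30 °C ablated female 3, and a slope of -1.01 ± 0.10 (adjusted p = 2.6e-08). The next by p were Atp5pb of the ATP synthase stalk, at -0.90 ± 0.10, Cox7a2 at -0.68 ± 0.08 and Sdha at -0.65 ± 0.08. With any single library left out, these 6 genes were called again, and the slope of Cox5a stayed between -1.59 and -1.36. In the male libraries alone none of the 6 was called.

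Other subunits were flat over the same libraries. Cox6b1 had 269 to 342 CPM (median 283) in 22 °C ablated livers, 226 to 315 CPM (median 283) in 22 °C control livers, 284 to 362 CPM (median 318) in 30 °C ablated livers and 256 to 328 CPM (median 311) in 30 °C control livers. Its slope was -0.07 ± 0.07. In 22 °C control female 3 it had 226 CPM and in 30 °C ablated female 3 301 CPM. The slope was 0.01 ± 0.08 for Ndufb7, -0.01 ± 0.09 for Ndufa3, -0.02 ± 0.07 for Ndufs8, 0.03 ± 0.08 for Ndufs1, 0.03 ± 0.08 for Cox7c and 0.06 ± 0.07 for Ndufa5. Steep and flat genes thus occurred in the same complexes, and in complex IV the steepest called gene, Cox5a, stood beside Cox6b1 and Cox7c. Over the 77 genes, Spearman's correlation of the slope with the GC content of the transcript was 0.27, and over 5440 genes of all kinds 0.28. With the length of the transcript the correlations were -0.07 and 0.28 over the same genes. With the mean log2 CPM they were 0.20 over the 77 genes and -0.09 over 5457 genes of all kinds. All points share the same 24 libraries.

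**Figure D3:**
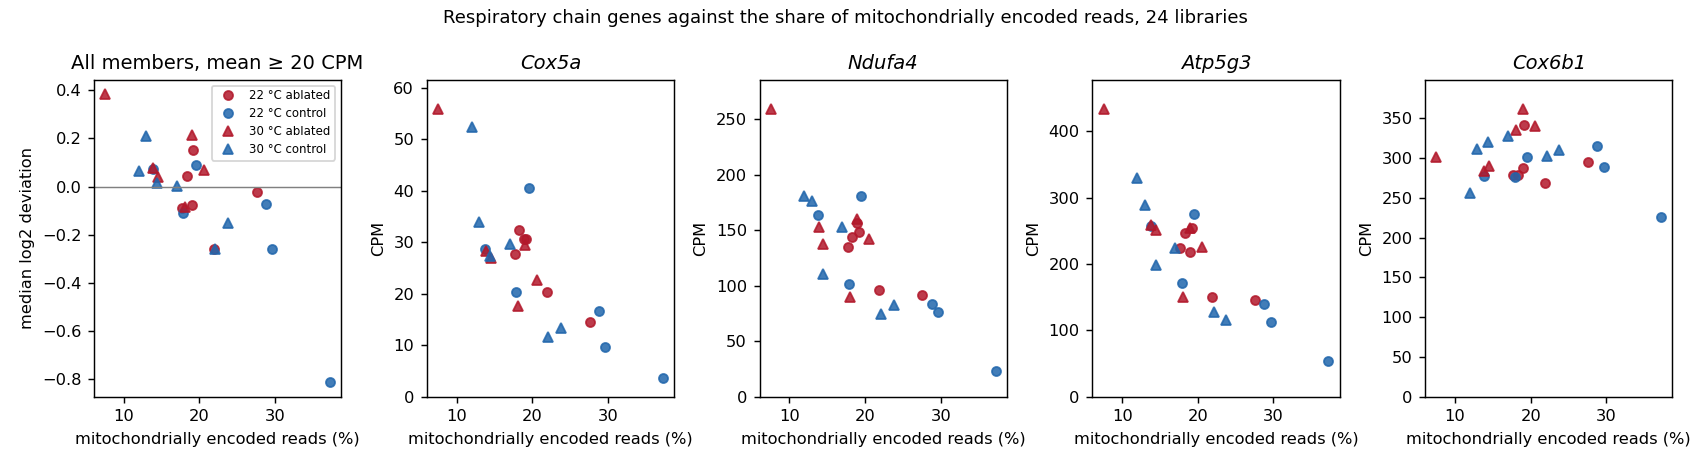
The median log2 deviation of 77 genes and the CPM of Cox5a, Ndufa4, Atp5g3 and Cox6b1 in each library against its percentage of mitochondrially encoded reads, with ablated mice in red, controls in blue, 22 °C as circles and 30 °C as triangles. Cox5a, Ndufa4 and Atp5g3 are lowest at 37.3% and highest at 7.53%, while Cox6b1 lies between 226 and 362 CPM throughout.

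**Figure D4:**
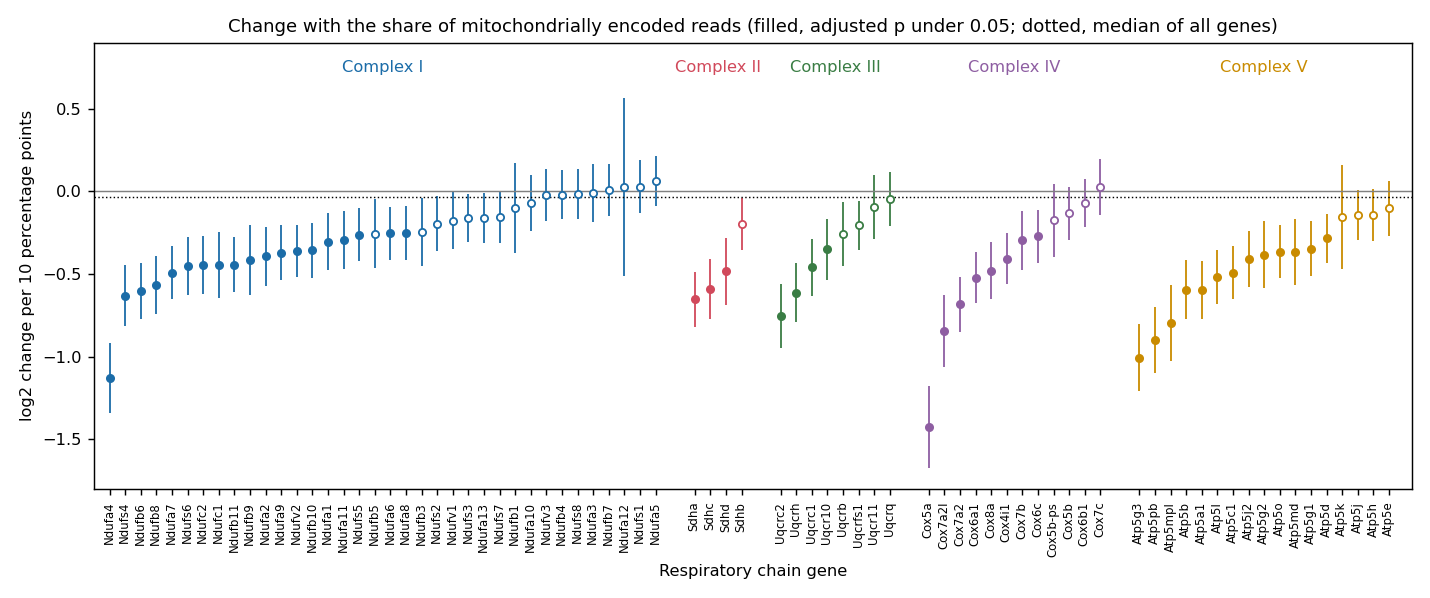
Change per 10 percentage points of mitochondrially encoded reads for the 77 genes with a mean of at least 20 CPM, with 95% confidence intervals, ordered within each complex. Filled points have an adjusted p under 0.05, the dotted line is the median of all genes, and all filled points lie below 0.

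The promoters of Cox5a and Ndufa4, which had the lowest p for the slope, are shown beside those of Cox6a1 and of a flat gene. Whether the letters of a promoter go with the slope was not tested. The sequences are the 200 bases before the RefSeq start on GRCm38.p6, on the gene's strand, 5′ to 3′. Capitals mark the letters GCGCATGC, a core of the site for nuclear respiratory factor 1 (NRF1), or CCGGAAG, a core of the site for GABPA (also called NRF2 in this context), on either strand. Cox5a lies at chr9:57521032-57521231 on the plus strand, Ndufa4 at chr6:11907451-11907650 on the minus strand, Cox6a1 at chr5:115348959-115349158 on the minus strand and Ndufb7 at chr8:83566558-83566757 on the plus strand. Cox6a1 is the gene with NRF1 letters in this window that had the lowest p for the slope, -0.52 ± 0.08, and Ndufb7 the well-measured gene with the flattest slope.
Cox5a: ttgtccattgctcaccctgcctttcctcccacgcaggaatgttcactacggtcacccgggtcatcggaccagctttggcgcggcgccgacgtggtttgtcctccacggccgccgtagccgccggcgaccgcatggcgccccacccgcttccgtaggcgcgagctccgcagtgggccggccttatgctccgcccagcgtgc
Ndufa4: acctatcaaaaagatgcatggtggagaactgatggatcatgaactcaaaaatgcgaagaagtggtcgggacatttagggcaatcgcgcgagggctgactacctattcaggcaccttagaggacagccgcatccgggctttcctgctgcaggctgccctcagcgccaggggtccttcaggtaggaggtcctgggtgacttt
Cox6a1: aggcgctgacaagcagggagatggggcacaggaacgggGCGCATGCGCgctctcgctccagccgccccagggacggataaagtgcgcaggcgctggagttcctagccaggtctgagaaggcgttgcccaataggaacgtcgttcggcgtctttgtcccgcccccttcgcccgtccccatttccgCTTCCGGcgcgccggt
Ndufb7: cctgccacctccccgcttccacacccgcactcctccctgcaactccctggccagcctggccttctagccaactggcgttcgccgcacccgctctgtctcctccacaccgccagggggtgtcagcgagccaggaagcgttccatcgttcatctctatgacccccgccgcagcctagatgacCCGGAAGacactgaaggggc
The windows of Cox5a and Ndufa4 held none of these letters, and that of Ndufb7 held CCGGAAG. In windows of 250 bases before to 50 after the start, 14.7% of the 68 subunit genes with a RefSeq window held GCGCATGC or its complement, against 3.94% of 17492 protein-coding genes. For CCGGAAG the shares were 25% and 12.9%, and for AAGATGGC, a core of the YY1 site, 14.7% and 3.57%. The 17492 genes were not chosen by their level in liver, whereas nearly all subunit genes were abundant there. A match of letters is a description of the window and does not show binding.

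The balance between paralogous genes for the same subunit differed between libraries in the same way. Atp5g1, Atp5g2 and Atp5g3 encode the same mature c subunit with different targeting peptides. Atp5g3 made up a median of 53.2% of their summed FPKM, Atp5g1 23.9% and Atp5g2 23.2%. The share of Atp5g3 was lowest in 22 °C control female 3, at 30.9%, where Atp5g1 had 35% and Atp5g2 34.1%. It was highest in 30 °C ablated female 3, at 59.2%. The slopes on the mitochondrial share were -1.01 for Atp5g3, -0.38 ± 0.10 for Atp5g2 and -0.35 ± 0.08 for Atp5g1. Ndufa4l2, a paralog of Ndufa4 known as a hypoxia-responsive gene, made up 0.883% to 29.2% of the sum of both, with a median of 4.55%. The highest share was again that of 22 °C control female 3, in which Ndufa4l2 had 7.65 CPM and Ndufa4 23.4 CPM. The log2 fold change of Ndufa4l2 for 22 °C over 30 °C was 0.24 ± 0.31 in ablated mice and 0.56 ± 0.32 in controls.

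**Figure D5:**
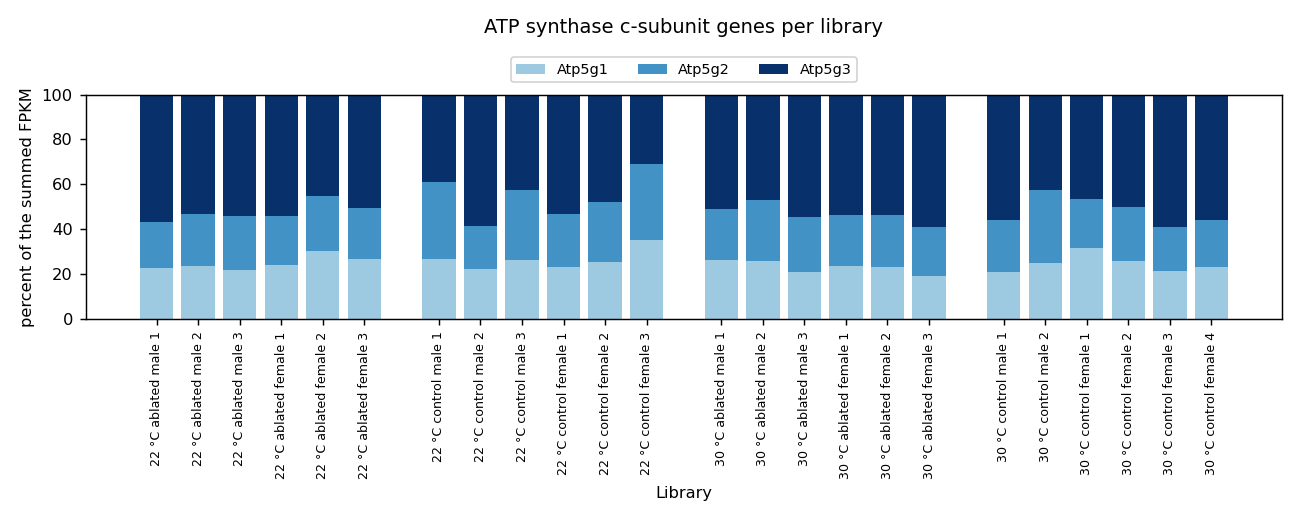
Share of Atp5g1, Atp5g2 and Atp5g3 in their summed FPKM in each of the 24 libraries, as stacked bars. Atp5g3 is the largest part in most libraries and falls to 30.9% in 22 °C control female 3.

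Other mitochondrial and ribosomal gene lists were read in the same way. In the 4 main comparisons none of the listed genes was called among complex I assembly factors (15 tested), assembly factors of complexes II to V (36), mitochondrial ribosomal proteins (77), cytosolic ribosomal proteins (82), tricarboxylic acid cycle enzymes (14), regulators of mitochondrial biogenesis (16), or uncoupling proteins and carriers (8). For 22 °C over 30 °C in ablated mice the medians were -0.21 for complex I assembly factors, -0.15 for the other assembly factors, -0.17 for mitochondrial ribosomal proteins and -0.24 for cytosolic ribosomal proteins, beside -0.17 for the subunits. In controls they were -0.09, -0.04, -0.06 and -0.08 in the same order, beside -0.13 for the subunits. With the mitochondrial share, 62 of 82 cytosolic ribosomal protein genes, 34 of 77 mitochondrial ribosomal protein genes, 6 of 14 tricarboxylic acid cycle genes, 6 of 15 complex I assembly factors and 8 of 36 other assembly factors were called lower, where 8.35% of all genes were. Called higher were 1 complex I assembly factor, 1 mitochondrial ribosomal protein gene and 2 of 16 regulators of mitochondrial biogenesis, of which 1 more was called lower. Of the hepatocyte markers 5 of 6 were called lower too, with a median of -0.31, and 0 of 6 endothelial, 0 of 6 stellate, 0 of 6 macrophage, 0 of 5 cholangiocyte, 0 of 5 lymphocyte and 0 of 5 erythroid markers were called. The relation was therefore not particular to the respiratory chain, and the parts of RNA quality, cell makeup and mitochondrial content in it were not tested. Among genes outside the name rule, cytochrome c1 (Cyc1) had 121 to 165 CPM in 22 °C ablated livers, 128 to 173 CPM in 22 °C control livers, 133 to 187 CPM in 30 °C ablated livers and 133 to 180 CPM in 30 °C control livers, all overlapping.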

How the data were processed

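Poly-A RNA of 24 livers was sequenced by the submitters. Per the submitters' processing notes, CASAVA, HISAT2 and DESeq2 were used with GRCm39. No source used here names their versions, the read counter or the annotation. The authors deposited raw counts for each gene. Their deposited FPKM values scale the counts by gene length and by the reads in genes of a library. Their deposited signal values are the counts after division by a size factor that each table sets for a library. The deposited gene length, a unit of its own kind (other), is in bases. The signal values were not tested. The 3 tables were joined to 27802 genes, and 40326 missing values were set to 0; counts shared between tables had 0 differences. Depth was 21691653 to 34851108 reads in genes.

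Counts were filtered with filterByExpr (20213 genes kept, 83 of the 84 members; Cox6a2 was not), scaled by TMM and fitted with edgeR 4.0.16 in R 4.3.3 (robust quasi-likelihood F test, 8 group means, 16 residual degrees of freedom). Contrasts were averaged over both sexes, tests were two-sided, and the Benjamini-Hochberg adjustment took in every gene tested in that comparison. Genes with an adjusted p under 0.05 count as called. The SE was derived from the log2 fold change and the F statistic. CPM are TMM-scaled. The within-group spread was computed on log2 (CPM + 0.5). The fit on the share of mitochondrially encoded reads kept 20140 genes and 15 residual degrees of freedom. The procedure was tested on simulated data.

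Alternatives were other scalings, no filter, DESeq2 1.42.0, limma 3.58.1 voom, sex as an additive term, Cre as a term, Ai39 x BAC-AT1A-Cre mice only, the replicate number as a block, and each library left out in turn. Genes were named where called (up to 6 per direction by p), otherwise the 4 of lowest p per comparison, plus a panel of known subunits. Further genes were named after their values were seen. The members, lists and rules were chosen with earlier results of these data known. Promoters came from the RefSeq table of GRCm38.p6 by symbol (68 of 84 matched), and gene positions from the deposited tables. Libraries of a group differed by more than counting error (chi-square per degree of freedom 27.3 to 421), so no library was counted as a repeat of another.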

Additional observations from a re-analysis of the deposited data

Results flagged for a closer look

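Of 168 groups of 4 or 6 libraries examined for the panel genes, the sums per complex and the mitochondrial share, 14 held a library whose gap to its neighbour passed Dixon's 95% critical value, and chance flags about 1 in 20. In 30 °C ablated female 3, Cox5a was at 55.9 CPM with the next library at 29.5, Cox7a2l at 71.0 CPM with the next at 42.2, Atp5a1 at 577 CPM with the next at 359, Atp5b at 574 CPM with the next at 355, and Atp5g2 at 123 CPM with the next at 88.0. This library had the lowest mitochondrial share, 7.53%. In 22 °C control female 3, which had the highest share, the complex III genes summed to 1015 CPM with the next control at 1443 CPM.

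Ndufb8 was at 42.1 CPM in 22 °C ablated female 1 with the next library at 34.8 CPM. Cox6a1 was at 276 CPM in 30 °C control female 1, the lowest of the 4 control females at 30 °C, with the next at 379 CPM. The other 6 concerned scarce paralogs. Cox4i2 was at 0.632 CPM in 22 °C ablated male 2 and at 0.343 CPM in 22 °C control male 1. Cox6a2 was at 1.18 CPM in 22 °C control male 1. Cox8b was at 0.664 CPM in 22 °C ablated female 3 and at 0.441 CPM in 30 °C control female 1, which stood apart both from all 6 controls and from the 4 control females at 30 °C. No explanation of these values was tested.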

How the results depend on the processing

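The number of members called stayed at 0 for ablation at 22 °C, temperature in ablated mice, and each of the 3 differences between ablation effects, under every alternative run. With 1 library left out it was 0 to 2 for ablation at 30 °C, 0 to 3 for temperature in controls, 0 to 2 for sex in controls and 24 to 49 for the mitochondrial share. For ablation at 30 °C, temperature and sex in controls, the 2, 3 and 2 came without 30 °C control male 2, when control male 1 alone stands for its group and is assumed to vary like the others. The genes for temperature were Ndufs4 at a log2 fold change of -0.76, Ndufc2 at -0.61 and Ndufb2 at 0.69. For temperature in controls no filter gave 2 members, Atp5pb and Ndufs4, both lower (2.38% of the members against 0.982% of all genes). There DESeq2 gave 1 (1.19% against 0.964%). For sex in controls no filter gave 2 (2.38% against 3.49%) and limma voom 0. The mitochondrial share as a covariate gave 9 (10.8% against 4.61%). The count for the share itself was 20 without the extreme libraries, 16 at 30 °C and 0 in males. For those subsets fewer libraries were fitted; for the other changes the cause was not tested. For the replicate block, same-numbered libraries did not deviate together (22 pairs, of which 7 correlated above 0.1, from -0.60 to 0.40), so the numbers are not taken as pairs; the block gave 0 members for sex in controls and 47 for the share, and 0 in each other comparison. Of 3109 single-gene values, 3091 kept their side of the threshold, 5 passed it newly and 13 no longer did, and no called value changed sign. Of 222 medians of the members, which carry no test, 17 had the other sign. The median for ablation at 22 °C was -0.02 with Cre as a term and -0.01 without 22 °C control female 3, and with the mitochondrial share as a covariate it was 0.09 for temperature in controls and 0.01 in ablated mice. Without 22 °C control female 3 the median was -0.09, against 0.14, for females minus males at 22 °C, and 0.08, against -0.02, for sex in controls. The other 11 lay between -0.08 and 0.06. Depth was not limiting for the 77 members above 20 CPM, whereas Cox4i2, Cox6a2 and Cox8b rest on at most 31 reads in any library.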
